A study of Homo sapiens with 4 samples.

Results

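The members were the protein-coding genes of human chromosome 19 whose GENCODE symbol starts with ZNF, 249 of the 1476 protein-coding genes of that chromosome and of the 20033 on chromosomes 1 to 22, X and Y. A peak counted for a gene when it touched the gene body extended by 3 kb at both ends. The other 1227 protein-coding genes of chromosome 19 served for comparison, 1118 of them within the length range of the ZNF genes. The study mapped APOBEC3B (A3B), a cytidine deaminase that turns cytosine into uracil in single-stranded DNA, by chromatin immunoprecipitation with sequencing (ChIP-seq) in 2 uveal melanoma cell lines, OMM2.3 and 92.1. Each line gave 1 library made with an A3B antibody from Abcam and 1 made with normal rabbit IgG, so that there were 4 groups of 1 library each, and each A3B library was compared with the IgG library of its own line. Both lines were grown without a treatment. OMM2.3 derives from a metastasis and 92.1 from a primary tumour of the eye, and each stands for a single donor.

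With 1 library per group no difference between lines has a replicate check and no p-value is given. Intervals are 95% intervals for counting error only, and neither genes nor peaks are replicates. The study's lists held 56167 peaks in OMM2.3 and 136678 in 92.1, of which 2350 and 3603 lay on chromosome 19. Reads per library were not analysed here, so the number of peaks per line is set beside the other values and not read as an amount of A3B.

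Most ZNF genes encode C2H2 zinc finger proteins, in which a row of small zinc-binding modules reads the DNA sequence, and many of them also carry a KRAB domain. The KRAB domain recruits TRIM28 (KAP1), which brings the histone methyltransferase SETDB1 and HP1 proteins, so that retrotransposons and other targets are packed into silent chromatin with trimethylated lysine 9 of histone H3. The genes arose by repeated tandem duplication and lie in clusters along chromosome 19, and the fingers of a protein are usually encoded in a single long last exon. The bodies of many of these genes are themselves covered by trimethylated lysine 9.

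The members had a median length of 26.1 kb (range 3.12 to 488.7 kb) against 13.8 kb for the other genes, and a median GC content of 43.6% against 54.0%. Their canonical transcripts encoded a median of 12 fingers, counted as matches to the C2H2 spacing in the translated coding sequence, with 36 at most and none in 2 genes. Because the genes lie side by side, 25 of the 337 peaks at ZNF genes in OMM2.3 and 39 of the 471 in 92.1 fell in the extended bodies of more than 1 ZNF gene, and 3 members were read-through genes that span a neighbour.

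Only 6 places in ZNF genes carried a peak in both lines, 1.78% of the ZNF peaks in OMM2.3 and 1.27% of those in 92.1. Over all peaks of chromosome 19 the shares were higher, at 4.68% and 3.00%. Whether such places exceed overlap by coincidence was not tested. The DNA of 4 of them is given first because it is the sequence on which the peak lists overlapped. Each line is the stretch covered by both peaks, read from the hg38 genome on the plus strand, and capitals mark every TC on this strand, the dinucleotide in which A3B prefers to deaminate the cytosine.
ZNF90, chr19:20080833-20081079, plus strand: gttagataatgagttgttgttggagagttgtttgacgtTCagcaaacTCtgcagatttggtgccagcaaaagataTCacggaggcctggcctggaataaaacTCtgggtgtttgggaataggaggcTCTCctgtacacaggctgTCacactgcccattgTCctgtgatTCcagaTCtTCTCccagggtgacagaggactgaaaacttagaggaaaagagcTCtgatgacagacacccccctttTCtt
ZNF787, chr19:56095720-56095884, plus strand: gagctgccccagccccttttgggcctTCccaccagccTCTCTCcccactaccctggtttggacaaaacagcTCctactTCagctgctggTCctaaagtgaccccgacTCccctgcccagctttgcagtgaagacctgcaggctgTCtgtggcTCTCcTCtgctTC
ZNF83, chr19:52682701-52682790, plus strand: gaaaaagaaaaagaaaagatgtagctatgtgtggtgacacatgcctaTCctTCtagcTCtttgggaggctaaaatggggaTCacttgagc
ZNF536, chr19:30436521-30436715, plus strand: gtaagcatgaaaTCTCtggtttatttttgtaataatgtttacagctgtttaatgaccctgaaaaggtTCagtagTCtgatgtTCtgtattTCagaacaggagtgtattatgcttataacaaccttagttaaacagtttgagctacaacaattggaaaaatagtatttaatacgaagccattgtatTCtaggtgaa
The ZNF90 stretch of 247 bases lay within 3 kb of the start of the gene, with 7 fragments in OMM2.3 and 5 in 92.1 and summits 19 bp apart. The ZNF787 stretch was intronic and held 60% GC, while the intronic ZNF536 stretch held 31.8% GC. The ZNF83 stretch was also intronic. ZNF83 had another shared place, and the remaining one was at ZNF91, which represses SVA retrotransposons. At this second ZNF83 place 41.2% (OMM2.3) and 58.2% (92.1) of the 32-base words around the summits had further copies in the genome. At ZNF91 it was 36.5% and 0%, and at the printed places it was 14.7% or less. The 6 OMM2.3 peaks held 5 or 7 fragments and the 6 from 92.1 held 4 to 6.

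Of the strongest peaks by −log10 p in 92.1, 2 intronic ones are shown next, as 201-base windows around the summit with TC in capitals.
ZNF724, chr19:23244938-23245138, plus strand: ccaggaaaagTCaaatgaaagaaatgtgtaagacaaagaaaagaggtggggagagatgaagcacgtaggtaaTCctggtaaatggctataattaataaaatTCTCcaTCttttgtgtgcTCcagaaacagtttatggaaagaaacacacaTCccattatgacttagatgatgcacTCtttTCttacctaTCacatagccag
ZNF260, chr19:36524741-36524941, plus strand: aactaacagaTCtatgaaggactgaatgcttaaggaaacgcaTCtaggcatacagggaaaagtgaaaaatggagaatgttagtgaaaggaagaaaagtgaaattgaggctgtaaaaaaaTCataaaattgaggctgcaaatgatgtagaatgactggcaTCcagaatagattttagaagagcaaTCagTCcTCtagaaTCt
The ZNF724 and ZNF260 peaks had 7 fragments each, a 4.26-fold enrichment and a −log10 p of 5.40, and 1.77% and 0% of the 32-base words in their windows had further copies in the genome. ZNF347 had a peak of the same height as these 2. In OMM2.3 the highest −log10 p was at ZNF490, at 4.71 with 11 fragments and a 3.76-fold enrichment. In the window of this ZNF490 peak 54.7% of the 32-base words had further copies in the genome. Fold enrichment here is the authors' ratio of A3B to IgG-based background, with 1 added to both.

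The peaks at ZNF genes were low in both lines. At ZNF genes the fold enrichment had a median of 2.60 and a maximum of 3.87 in OMM2.3, and a median of 2.66 and a maximum of 4.26 in 92.1. The fragment numbers recovered from the deposited values had a median of 6 (range 4 to 11) in OMM2.3, while in 92.1 the median was 4 (range 3 to 7). The adjusted p (q) was 1 for 99.7% of the ZNF peaks in OMM2.3 and for 93.4% in 92.1, and 0 ZNF peaks reached a q of 0.05, against 30 and 16 peaks on the whole chromosome. Of these, 27 in OMM2.3 and 13 in 92.1 lay outside all extended bodies of protein-coding genes. At the other genes 3 of 1276 peaks in OMM2.3 and 3 of 2091 in 92.1 reached it. The ZNF peaks therefore rest on a few fragments each, and a gene is called below by such peaks. Peaks of 8 or more fragments made up 7.12% (interval 4.83 to 10.4) of the ZNF peaks and 13.01% (11.3 to 14.97) of the peaks at other genes in OMM2.3. In 92.1 there were 0 such peaks at ZNF genes, which allows up to 0.809%, and 7 at other genes. These 92.1 counts rest on the lower of 2 sets of fragment numbers that return the deposited values equally well, the other being double, so that they cannot be set beside OMM2.3. In OMM2.3, 23.2% of the ZNF peaks (18.96 to 27.9) had a window made mostly of repeated words, against 17.5% of positions across the ZNF bodies. In 92.1 the share was 17.2%.

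In OMM2.3, 162 of the 249 ZNF genes had a peak (65.1%, interval 59.0 to 70.7), and in 92.1, 205 had one (82.3%, 77.1 to 86.6). As background, 56.1% of all protein-coding genes of chromosome 19 had a peak in OMM2.3 and 78.1% in 92.1, and 50.5% and 73.6% of those on all chromosomes. Long genes offer more room for a peak, so the other genes were weighted to the ZNF lengths over 5 bins. The other genes of like length then had a peak in 64.7% of cases in OMM2.3 (61.4 to 67.8) and in 85.1% in 92.1 (82.5 to 87.3). The difference, ZNF minus other, was 0.389 percentage points (−6.47 to 6.91) in OMM2.3 and −2.74 (−8.41 to 2.201) in 92.1. Both intervals include 0, so a difference in either direction was not detectable within these limits.

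A peak in both lines was present at 138 ZNF genes (55.4%), in 92.1 alone at 67, in OMM2.3 alone at 24 and in neither at 20. The share with a peak in both was 47.5% over all protein-coding genes of the chromosome and 58.5% (55.2 to 61.8) over other genes of like length, a difference of −3.08 percentage points (−10.1 to 3.82).

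**Figure D1:**
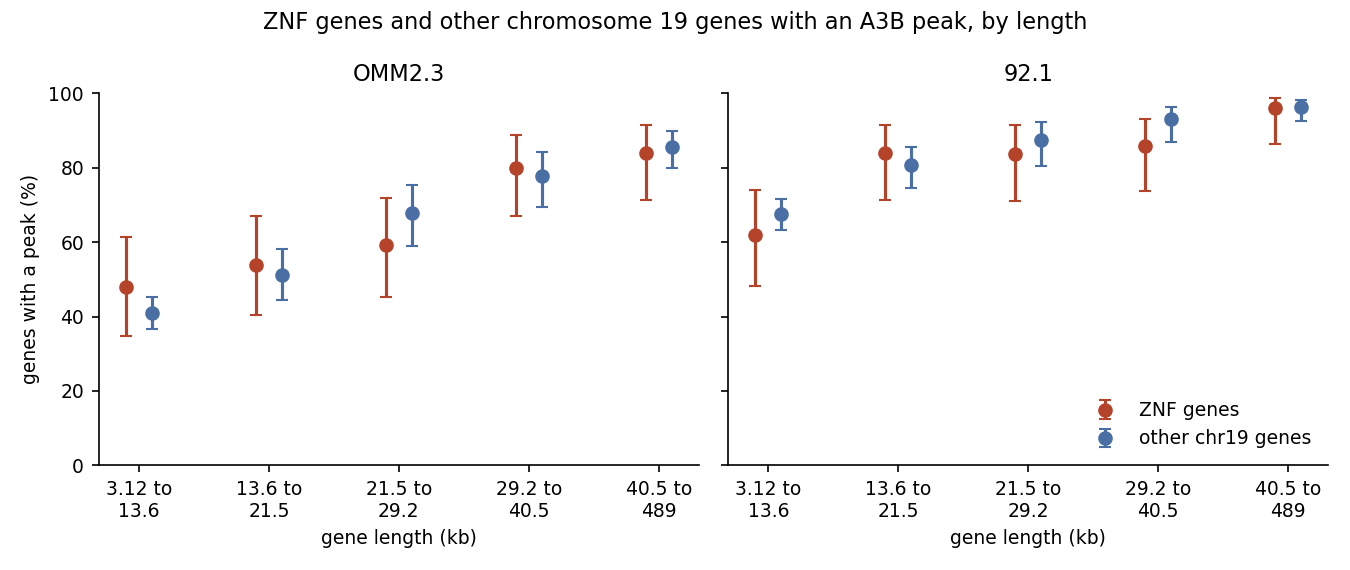
Percentage of genes with at least 1 A3B peak (vertical axis) in 5 bins of gene length in kb (horizontal axis), for ZNF genes (red) and other protein-coding genes of chromosome 19 (blue) in OMM2.3 (left) and 92.1 (right), with 95% Wilson intervals. From the shortest to the longest bin the ZNF share climbs from 48% to 84% in OMM2.3, and in 92.1 it climbs from 62% to 96%, and the intervals of ZNF and other genes overlap in every bin.

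Length separated the ZNF genes among themselves. In the shortest bin (3.12 to 13.6 kb) 24 of 50 ZNF genes had a peak in OMM2.3 and 31 of 50 in 92.1, and in the longest (40.5 to 488.7 kb) 42 and 48 of 50. Across the 249 genes the number of peaks and the gene length had a Spearman's rho of 0.38 in OMM2.3 and 0.51 in 92.1, and the peak numbers of the 2 lines had a rho of 0.24. Genes of a cluster share peaks and length enters both counts, so these are descriptions across genes.

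ZNF536, a repressor of neuronal differentiation and the longest member (488.7 kb), had the most peaks, 24 in OMM2.3 and 25 in 92.1. ZNF83 followed in OMM2.3 with 9 peaks and had 8 in 92.1. ZNF675 had 8 and 7 peaks. These 3 genes ranked high in both lines. ZNF568 had 3 peaks in OMM2.3 and 8 in 92.1. ZNF573 had 0 in OMM2.3 and 7 in 92.1. ZNF577 had 7 and 4 peaks, and ZNF254 had 7 and 6. The longest ZNF genes without a peak in either line were ZNF571 (40.01 kb), ZNF676 (36.7 kb), ZNF85 (27.5 kb), ZNF135 (27.1 kb) and ZNF136 (26.8 kb).

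**Figure D2:**
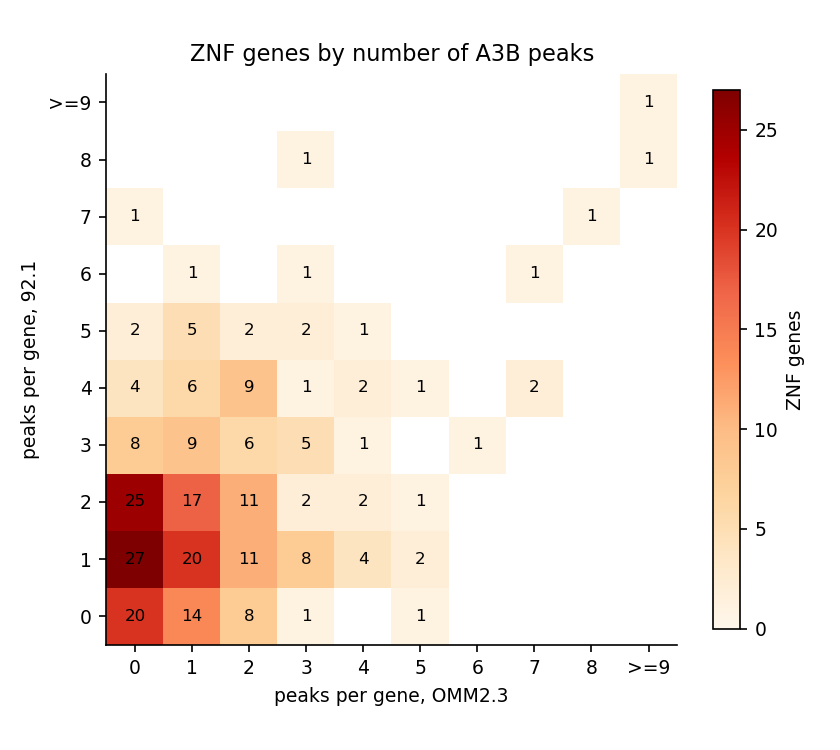
Number of ZNF genes (colour and digit in each square) by their number of A3B peaks in OMM2.3 (horizontal axis) and in 92.1 (vertical axis), with 9 or more peaks in the last class. The 20 genes without a peak in either line sit at the lower left, and 27 genes had 0 peaks in OMM2.3 and 1 in 92.1.

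Among 11 ZNF genes with a known function, 9 had a peak in OMM2.3 and all 11 in 92.1, beside 65.1% and 82.3% of all members. Their median length was 30.5 kb, against 26.1 kb for all members. ZNF93, which represses L1 retrotransposons, had 3 peaks in OMM2.3 and 5 in 92.1. ZNF208, with 36 fingers the longest array, also had 3 and 5. ZNF274, which brings SETDB1 to the 3′ ends of other zinc finger genes, had 2 and 3. ZNF417 had 2 and 3 peaks and its close relative ZNF587 had 2 and 1. Both repress HERV-K elements, and near-identical copies of this kind can exchange reads. ZNF808, which represses MER11 elements, had 4 peaks in OMM2.3 and 1 in 92.1. The imprinted gene ZNF331 had 3 and 1. ZNF350 and ZNF419 had 0 peaks in OMM2.3 and 1 in 92.1, and ZNF382 had 1 in each line.

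Counted over territory rather than by gene, the members as a whole had fewer peaks per Mb than all other genes of the chromosome. The merged extended bodies of the ZNF genes covered 8.75 Mb and held 38.5 peaks per Mb in OMM2.3 and 53.8 in 92.1. The bodies of the other genes covered 29.3 Mb outside the ZNF territory and held 43.6 and 71.5 peaks per Mb. The ratio of ZNF to other territory was 0.883 (interval 0.783 to 0.995) in OMM2.3 and 0.753 (0.681 to 0.832) in 92.1. The mean number of peaks per ZNF gene was 1.45 in OMM2.3 and 2.05 in 92.1, against 1.69 and 2.78 in other genes of like length.

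GC content moved with this result. The ZNF territory held 43.5% GC and the other gene territory 51.8%. When the density of the other territory was weighted to the GC content of the ZNF territory over 7 bands of 5-kb tiles, the ratio was 1.058 (0.899 to 1.25) for OMM2.3 and 0.925 (0.808 to 1.060) in 92.1, and both intervals include 1. The part of GC content in the lower density was not tested beyond this weighting. Above 50% GC, 92.1 had 51.3 summits per Mb in ZNF territory (37.1 to 69.0) against 77.6 (73.6 to 81.8) in the other territory. This was the only one of the 14 pairs of bands and lines in which the intervals did not overlap. That band has no upper limit and held 0.839 Mb of ZNF territory and 18.4 Mb of other territory, so GC content was not matched within it.

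**Figure D3:**
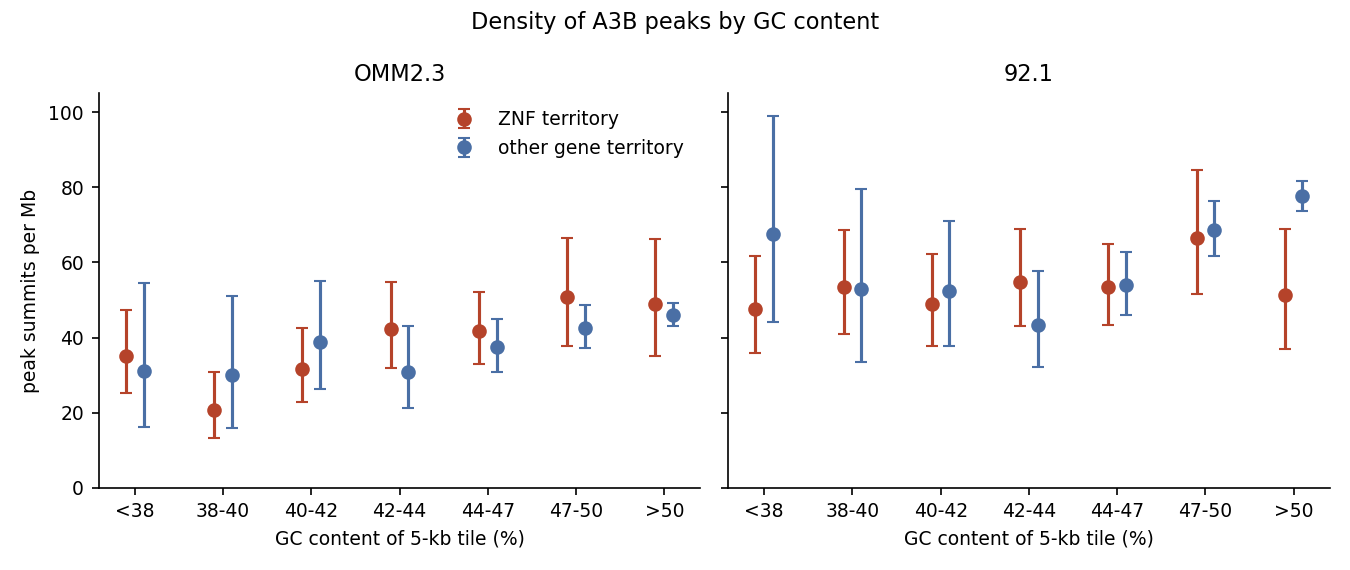
Peak summits per Mb (vertical axis) by GC content of 5-kb tiles in percent (horizontal axis) for the ZNF territory (red) and the other gene territory (blue) in OMM2.3 (left) and 92.1 (right), with exact 95% Poisson intervals. The intervals of the 2 territories overlap in all bands except above 50% GC in 92.1, where ZNF territory lies at 51.3 and other gene territory at 77.6 per Mb. The band above 50% GC has no upper limit, and GC content is not matched within it.

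The lines differed in peak density by the position of a ZNF gene along the chromosome. ZNF genes less than 500 kb apart were joined into 20 clusters. In the cluster from ZNF575 to ZNF180, which holds 23 genes, OMM2.3 had 5 peaks (8.34 per Mb, interval 2.71 to 19.5) at 5 genes and 92.1 had 37 peaks (61.7 per Mb) at 19 genes. In the cluster from ZNF565 to ZNF573, which holds 26 genes, OMM2.3 had 15 peaks (12.4 per Mb, 6.95 to 20.5) at 11 genes and 92.1 had 68 (56.3 per Mb) at 24 genes. In the cluster from ZNF101 to ZNF254 near the centromere, with 37 genes that include ZNF91, ZNF93 and ZNF208, the lines were close, with 84 peaks at 35 genes in OMM2.3 and 82 peaks at 29 genes in 92.1.

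**Figure D4:**
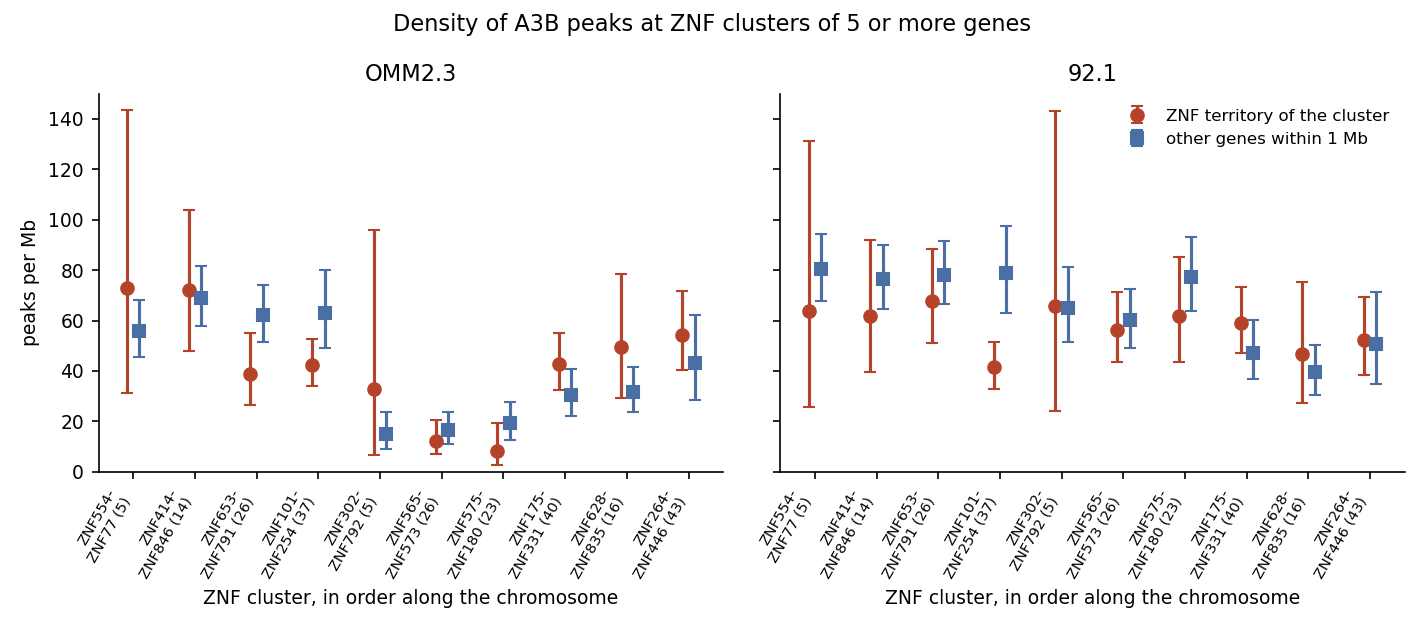
Peaks per Mb (vertical axis) in ZNF clusters of 5 or more genes, ordered along chromosome 19 and named by their first and last gene with the number of genes (horizontal axis), in OMM2.3 (left) and 92.1 (right). Red points give the ZNF territory of the cluster and blue squares the other genes within 1 Mb of it, with exact 95% Poisson intervals. In OMM2.3 the clusters ZNF565 to ZNF573 and ZNF575 to ZNF180 lie at 12.4 and 8.34 per Mb and the other genes around them at 16.6 and 19.2, while in 92.1 the same clusters lie at 56.3 and 61.7.

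The low values in OMM2.3 ran over neighbouring clusters of the long arm, with single genes such as ZNF296 that had 1 peak among them. Over the 9 clusters from ZNF302 to ZNF473 (chr19:34677639-50053414, hg38, a span chosen after its values were seen) 22 of 63 ZNF genes had a peak in OMM2.3 (34.9%) and 54 in 92.1 (85.7%). The density at these ZNF genes was 12.5 peaks per Mb in OMM2.3 (8.23 to 18.2) and 57.8 in 92.1 (48.1 to 68.9). The other genes of the span were also low in OMM2.3, at 19.6 per Mb (16.9 to 22.6), and not in 92.1, at 75.4 (70.0 to 81.2). Of the 438 other genes of the span, with no regard to length, 36.8% had a peak in OMM2.3 and 79.2% in 92.1.

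On the short arm, the 6 clusters from ZNF554 to ZNF254 had 46.8 peaks per Mb in OMM2.3 and 51.2 in 92.1, and 71 and 70 of 85 ZNF genes had a peak. The other genes of that span had 62.1 and 74.5 per Mb, and 70.9% and 80.2% of them had a peak. Towards the end of the long arm, the 3 clusters from ZNF175 to ZNF446 had 47.7 and 55.1 peaks per Mb, and 67 and 79 of 99 ZNF genes had a peak. The other genes of that span had 31.9 and 39.6 per Mb, and 49.6% and 54.7% of them had a peak. There the ZNF territory was the denser one in both lines, with a ratio of 1.49 (1.13 to 1.97) in OMM2.3 and 1.39 (1.08 to 1.79) in 92.1. In the first 6 clusters the ratio was 0.753 and 0.688, and in the low stretch 0.638 and 0.766. These spans were formed after the cluster values were seen, and neither GC content nor length is matched in them.

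The background that peak calling set at the ZNF peaks, recovered from the deposited values, moved with the position in OMM2.3. Its median was 1.33 fragments over the first 6 clusters, 1.05 in the low stretch and 1.10 over the last 3 clusters. At peaks of the other genes of these spans the median was 1.35, 1.05 and 1.125. The value 1.05 was also the lowest at any chromosome 19 peak of that line. In 92.1 the median at the ZNF peaks was 0.903 in all 3 stretches, close to the lowest value at any chromosome 19 peak of that line, 0.877. At peaks of the other genes of these spans the 92.1 median was 0.993, 1.011 and 0.975. Chromosome copy number, mapping depth and A3B occupancy along the stretch cannot be told apart from these lists. ZNF573, with 0 peaks in OMM2.3 and 7 in 92.1, lies in this stretch.

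In OMM2.3 the comparison with other genes differed between the arms. On the short arm ZNF territory had 46.2 peaks per Mb against 61.7 in other genes (ratio 0.749, 0.632 to 0.889). On the long arm it had 33.4 against 25.8 (ratio 1.29, 1.08 to 1.54). The low stretch made up 2.16 of the 5.40 Mb of ZNF territory on the long arm and 9.35 of the 14.9 Mb of other territory. The long-arm ratio of OMM2.3 thus pools 0.638 in the low stretch with 1.49 over the last 3 clusters. No arm ratio was matched for this placement. In 92.1 both arms lay below 1, at 0.673 (0.572 to 0.791) and 0.824 (0.724 to 0.937). At like GC content the arms gave 0.8001 (0.588 to 1.09) and 1.26 (1.02 to 1.57) in OMM2.3, and 0.863 (0.648 to 1.15) and 0.979 (0.837 to 1.15) in 92.1. The share of ZNF genes with a peak was 83.5% on the short arm and 55.5% on the long arm in OMM2.3, against 82.3% and 50.6% of other genes of like length. In 92.1 it was 82.4% and 82.3%, against 91.4% and 80.8%. The difference on the short arm of 92.1 was −9.06 percentage points, with an interval of −18.85 to −1.53 that does not include 0. The other 3 intervals include 0, with differences of 1.26 and 4.87 in OMM2.3 and 1.49 on the long arm of 92.1.

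Peaks of the 2 lines rarely met. Of the ZNF peaks, 6 of 337 in OMM2.3 (1.78%, 0.819 to 3.83) and 6 of 471 in 92.1 (1.27%, 0.585 to 2.75) overlapped a peak of the other line by at least 1 bp. At the other genes 63 of 1276 (4.94%, 3.88 to 6.27) and 60 of 2091 (2.87%, 2.24 to 3.68) did. Over the whole chromosome the shares were 4.68% in OMM2.3 and 3.00% in 92.1, and over all chromosomes 3.62% and 1.485%. When the summits had to lie within 100 bp, the shares at ZNF genes and other genes were 1.19% and 1.33% in OMM2.3 and 0.849% and 0.861% in 92.1. A ZNF gene called in both lines therefore mostly carried its peaks at different places. The shared places lay at ZNF90, ZNF787, ZNF83, ZNF91 and ZNF536, with 2 of them at ZNF83.

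Within the ZNF territory the summits lay about where the bases lay. Introns held 66.9% of the summits in OMM2.3 and 65.4% in 92.1, against 64.8% of the bases. The 3 kb on either side of the transcription start held 16.7% and 19.4% of the summits and 16.5% of the bases. Within 1 kb of the start the lines went apart, with 9 summits in OMM2.3 (0.485 of the share of bases, interval 0.256 to 0.907) and 35 in 92.1 (1.35, 0.979 to 1.84).

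The longest coding exon of each gene, with a median of 1537 bp, usually the one that encodes the fingers, held 8 summits in OMM2.3, 0.551 of its share of bases (0.281 to 1.07), and 21 in 92.1, 1.04 of its share (0.682 to 1.56). Both intervals include 1. The 8 genes in OMM2.3 were ZNF699, ZNF208, ZNF723, ZNF726, ZNF808, ZNF813, ZNF550 and ZNF132. In 92.1 ZNF347 and ZNF728 each had 2 such summits, and ZNF208 was the only gene with one in both lines, about 1 kb apart.

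**Figure D5:**
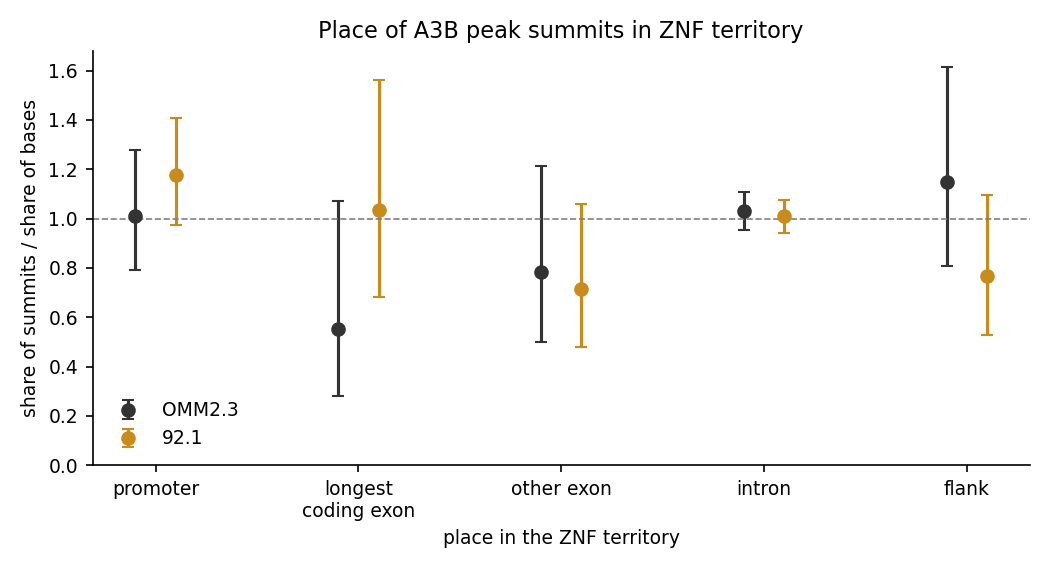
Share of peak summits divided by the share of bases (vertical axis, 1 marked by the dashed line) for 5 places in the ZNF territory (horizontal axis) in OMM2.3 (black) and 92.1 (yellow), with 95% Wilson intervals of the summit share. Flank is the rest of the 3-kb extension. Introns lie at 1.03 and 1.01, and the longest coding exon at 0.551 in OMM2.3 and 1.04 in 92.1 with wide intervals.

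The finger exons repeat a short linker between fingers, whose amino acids are encoded by variants of ACNGGNGANAANCC, where N is any base. The motif was searched on both strands and shows what a peak in such an exon covers. The following windows are the 201 bases around summits that held it, given on the strand of the gene. Capitals mark exact matches to the motif. The first window is from OMM2.3 and the other 2 are from 92.1.
ZNF132, chr19:58433472-58433672, minus strand: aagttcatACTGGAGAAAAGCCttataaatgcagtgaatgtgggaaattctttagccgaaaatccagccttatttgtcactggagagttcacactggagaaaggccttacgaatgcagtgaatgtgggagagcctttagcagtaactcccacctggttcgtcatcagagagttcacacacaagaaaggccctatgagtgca
ZNF429, chr19:21536621-21536821, plus strand: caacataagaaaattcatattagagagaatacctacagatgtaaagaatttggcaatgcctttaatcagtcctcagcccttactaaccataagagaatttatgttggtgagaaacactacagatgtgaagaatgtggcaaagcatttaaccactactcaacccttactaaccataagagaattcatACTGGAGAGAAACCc
ZNF420, chr19:37127554-37127754, plus strand: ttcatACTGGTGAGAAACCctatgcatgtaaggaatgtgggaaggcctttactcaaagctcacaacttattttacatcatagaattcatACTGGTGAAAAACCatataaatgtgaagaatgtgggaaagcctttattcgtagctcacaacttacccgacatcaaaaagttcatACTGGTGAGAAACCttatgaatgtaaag
The ZNF420 window held 3 exact matches to the motif and the others 1 each. Linkers that depart from the motif were neither marked nor counted. ZNF420 and ZNF429 encode C2H2 arrays, and 2.94% and 7.65% of the words in their windows were repeated. In ZNF132 it was 0%. Across the ZNF territory 2.54% of all 201-base windows held the motif, and 49.6% of those in the longest coding exons, against 0.0509% in the other gene territory. At summits it was present in 4 of 335 in OMM2.3 (1.19%, 0.465 to 3.03) and 10 of 468 in 92.1 (2.14%, 1.17 to 3.89), shares whose intervals include that of the territory. In the longest coding exons 3 of 8 and 8 of 21 summits had it.

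Base composition at the ZNF summits is given as a description of each list. The 201-base windows had a mean GC content of 47.2% ± 0.463 (SE, n = 335 summits) in OMM2.3 and 44.1% ± 0.439 (SE, n = 468) in 92.1, with errors over summits and not over libraries, against 43.5% in the territory as a whole. The share of cytosines preceded by T was 25.8% ± 0.315 in OMM2.3 and 27.2% ± 0.321 in 92.1, against 27.5% in the territory. In neither line was it above the territory. At the other genes the shares were 22.97% and 23.2%, against 23.8%.

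The number of encoded fingers did not order the genes alike in the 2 lines. In OMM2.3 the share of genes with a peak was 71.2% (57.7 to 81.7) with up to 8 fingers and 61.4% (46.6 to 74.3) with 17 or more. In 92.1 it was 82.7% and 86.4%. Peaks per 100 kb were 4.51 and 2.53 in OMM2.3 and 5.81 and 5.33 in 92.1 for these classes. The intervals of the shares overlap, and genes with many fingers were longer, with a median of 30.2 kb against 21.0 kb. The classes were also not matched on position along the chromosome, which includes the low stretch of OMM2.3. No intervals were computed for the peaks per 100 kb.

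Of 22 genes of the KRAB silencing pathway on all chromosomes, 11 had a peak in OMM2.3 and 19 in 92.1, beside 50.5% and 73.6% of all protein-coding genes. The median length of these 22 genes was above the 26.1 kb of the ZNF genes, and the comparison was not matched on length. TRIM28, the corepressor that KRAB domains bind, had 2 peaks in OMM2.3 and 1 in 92.1. SETDB1, the methyltransferase, had 2 and 4. Of the HP1 genes, CBX1 and CBX3 had 1 peak each in OMM2.3 and 4 and 2 in 92.1, and CBX5 had 0 and 2. Of the HUSH complex genes, TASOR, MPHOSPH8 and PPHLN1 had 0 peaks in OMM2.3 and 3, 2 and 10 in 92.1, and MORC2, which acts with it, had 4 and 7. DNMT1, the maintenance DNA methyltransferase, had 6 in each line, and DAXX and HDAC2 had 0 in both. Among 17 other C2H2 genes of chromosome 19 with symbols other than ZNF, 12 had a peak in OMM2.3 and 15 in 92.1, beside 56.1% and 78.1% of all protein-coding genes of the chromosome. Their median length was 23.6 kb, again without matching on length. ZSCAN5A had 4 and 5 peaks, and ZFP30, which lies in the low stretch of OMM2.3, had 0 and 2. In these lists too, 0 peaks reached a q of 0.05.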

How the data were processed

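The analysis started from the 2 A3B peak lists, and the IgG libraries entered only through the calling. Per the study's methods and processing notes, reads were aligned with Bowtie2 (2.2.5) to hg38, duplicates were removed with Sambamba, and the authors called peaks per line with MACS2 (2.2.7.1) against IgG at p 0.05. The deposited columns hold a score (10 times −log10 p), a fold enrichment ratio, −log10 p and −log10 q, and a summit. The score and the summit's offset were used only as checks and positions.

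Members and lists were chosen with earlier results of these data known. Genes came from GENCODE version 44 and sequences from hg38. Named genes were, per line, the 5 with most peaks and the 5 with the highest −log10 p (in 92.1, 12 peaks tied at the second value and the first along the chromosome were taken), the shared pairs, every ZNF gene with a q of at most 0.05 (0 genes), the 5 longest without a peak and 11 of known function. Other genes were weighted to the ZNF lengths over 5 quantile bins. Shares carry Wilson intervals, their differences Newcombe intervals, densities exact Poisson intervals. Fragment numbers were solved from fold and p, which gave whole numbers for 100% of chromosome 19 peaks within 0.002 in −log10 p. In 92.1 every value also fits with each number doubled and scaled by 0.5, so that the lower numbers were taken. A window counted as repeated when at least 50% of its 32-base words had further genomic copies. Fingers were counted in GENCODE translations, since RefSeq proteins were not used here. Of 18 other C2H2 symbols, 17 were found. Density and fragment steps were tested on simulated data. Analyses used Python 3.11.15, numpy 2.4.6, scipy 1.17.1 and pandas 2.3.3. Some sequences are not reported here.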

Additional observations from a re-analysis of the deposited data

Results flagged for a closer look

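With 1 library per group, no group was large enough to search for an outlying sample. In 5 comparisons the 2 lines lay on opposite sides of no difference, and none of these contrasts between lines was tested. The share of ZNF genes with a peak minus that of other genes of like length was 0.389 percentage points in OMM2.3 and −2.74 in 92.1, and on the short arm alone it was 1.26 (−8.76 to 9.07) and −9.06 (−18.85 to −1.53). The density ratio of ZNF to other territory at like GC content was 1.058 and 0.925. On the long arm without regard to GC content the ratio was 1.29 in OMM2.3 and 0.824 in 92.1. This arm includes the low stretch of OMM2.3, where the ratio was 0.638 in OMM2.3 and 0.766 in 92.1. The share of summits within 1 kb of a ZNF start site, divided by the share of bases, was 0.485 in OMM2.3 and 1.35 in 92.1.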

How the results depend on the processing

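The differences in the share of genes with a peak stayed within the counting interval under all 13 alternatives in both lines and for both lines jointly. At a p of at most 1e-05 and a q of at most 0.05 this had to be so, because few genes of either kind had a peak. The share of ZNF genes with a peak was then 0% in OMM2.3, and in 92.1 it was 1.205% and 0%. In OMM2.3 the differences ran from −5.75 percentage points, when other genes were matched on length and GC content, to 1.75. In 92.1 they ran from −3.61 to −0.314, and for both lines jointly from −6.26 to 0. The ends at −0.314 and 0 come from the q of at most 0.05. The density ratio of ZNF to other territory moved more. At a p of at most 1e-05 it was 0 in OMM2.3 and 0.590 in 92.1, on 0 and 3 ZNF peaks, and at a q of at most 0.05 it was 0 in both lines, on 0 ZNF peaks. At like GC content, chosen after seeing the data, it turned to 1.058 in OMM2.3 and was 0.925 in 92.1. The arms, also taken apart after seeing the data, gave 0.749 on the short arm and 1.29 on the long arm in OMM2.3, and 0.673 on the short arm in 92.1. The cause was not tested. The ratio at promoters in OMM2.3 was 0.485 at 1 kb in place of 1.01 at 3 kb. The matching on GC content of genes was not run for the density, which has no genes to match. No paired analysis was possible because none of the groups had a second library, and no replicate could be left out for the same reason. The few fragments per peak limit every count given here.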
